A study of Homo sapiens with 12 samples.

Results

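TERT and CLPTM1L are neighbouring genes near the telomere of the short arm of chromosome 5 (band 5p15.33), and their RNA was followed in 12 libraries of HaCaT, a spontaneously immortalised line of human keratinocytes. The pair was picked by gene symbol, with earlier results of these data known, and found by Ensembl identifier. It makes up 2 of the 61498 entries of the deposited tables and 2 of the 10800 that were tested. Total RNA was sequenced from 4 HaCaT derivatives that stably differ in the short hairpin RNA they carry: shMLL1 (labelled as an MLL1 knockdown), shUTX (a UTX knockdown), shNRF2 (an NRF2 knockdown) and shControl (a control hairpin, labelled WT). MLL1 (gene KMT2A) is a histone methyltransferase linked to active genes, UTX (gene KDM6A) is a histone demethylase that removes a repressive mark, and NRF2 (gene NFE2L2) activates the antioxidant response. Every derivative was sampled after 24 h with hydrogen peroxide (H2O2, 100 µM), after 24 h with nanoparticles of cerium oxide (CeO2, 25 µg/mL), and untreated. Each of the 12 combinations had 1 library. Separate cultures are not mentioned in the labels, and no combination was repeated. The main p-values therefore measure the spread that derivative and treatment, taken as additive, leave among these libraries. That spread may be technical, may hold responses that differ between derivatives, and is not a spread between replicates. Each knockdown is 1 derivative, so an effect of a hairpin and any other difference between derivatives cannot be told apart.

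TERT encodes the catalytic subunit of telomerase, a reverse transcriptase that copies the template in the RNA subunit TERC onto chromosome ends. In most differentiated somatic cells the gene is nearly silent, and immortal lines keep their telomeres by expressing it or by another route. CLPTM1L, whose name stands for cleft lip and palate transmembrane protein 1-like, encodes a membrane protein of the endoplasmic reticulum that many cell types express, and the region holding both genes is known for its links to cancer risk.

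By the GENCODE 29 annotation of GRCh38, TERT (ENSG00000164362) spans 41923 bases of chromosome 5, from 1253147 to 1295069, and CLPTM1L (ENSG00000049656) spans 27356 bases, from 1317744 to 1345099. Both lie on the minus strand, 22674 bases apart, with TERT nearer to the telomere, and no other annotated entry overlaps either of them. The start regions of both genes are shown because KMT2A, KDM6A and NFE2L2 act at regulatory DNA. They are the RefSeq sequences (GRCh38.p14, minus strand), each running from 250 bases before to 50 bases after the start of transcription, at chr5:1295019-1295318 for TERT and chr5:1345050-1345349 for CLPTM1L. Capitals mark matches on either strand to 4 motifs: the E-box CACGTG, the GC box GGGCGG, the ETS core CCGGAA and the antioxidant response element TGACNNNGC.
TERT: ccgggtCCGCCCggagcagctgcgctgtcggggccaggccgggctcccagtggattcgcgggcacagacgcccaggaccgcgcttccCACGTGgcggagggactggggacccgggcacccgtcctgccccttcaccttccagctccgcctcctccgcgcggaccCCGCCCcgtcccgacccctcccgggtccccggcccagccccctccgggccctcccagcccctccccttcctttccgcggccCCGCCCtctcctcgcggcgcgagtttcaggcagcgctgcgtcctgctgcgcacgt
CLPTM1L: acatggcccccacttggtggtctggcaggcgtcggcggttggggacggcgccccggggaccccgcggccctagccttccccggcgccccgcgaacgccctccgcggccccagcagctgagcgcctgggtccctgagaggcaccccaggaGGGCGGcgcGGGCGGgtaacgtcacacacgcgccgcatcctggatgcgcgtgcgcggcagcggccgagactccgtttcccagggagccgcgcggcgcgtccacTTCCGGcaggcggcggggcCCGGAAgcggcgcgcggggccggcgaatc
The TERT window held 1 E-box and 3 GC boxes, and the CLPTM1L window 2 GC boxes and 2 ETS cores. Of 35116 RefSeq windows of this length, 7.256% held an E-box, 44.95% a GC box, 17.25% an ETS core and 13.35% an antioxidant response element. Neither window matched the antioxidant response element. GC content was 77.3% for TERT and 78.0% for CLPTM1L, against a median of 58.7% over all windows. A match is a match of letters, and binding was not measured. The TERT window ends in the first letters of an E-box, and a match cut by the edge is not counted. These sequences are of the reference genome, and that of HaCaT was not read.

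Library totals ran from 5388335 to 7670446 counts, and mitochondrial transcripts took 7.41% to 10.0% of them. Names and reads do not match throughout these tables: of 419 genes needed in any cell, 265 had a mean under 1 CPM (the count for each 1000000 counts of its library) and 130 had no count at all. Genes are therefore read by name only in the mitochondrial genome and in 4 chromosome stretches, drawn after seeing the data, where these genes do have reads. One stretch is the short arm of chromosome 5 (218241 to 44820428), where 61.5% of 143 other coding genes reached 1 CPM, against 33.0% of 18981 outside all stretches. The entries of the silenced genes lie outside the stretches and check the labels only in part. Of these 3 entries only KMT2A had enough counts to be tested, and the values of KDM6A and NFE2L2 rest on few counts. The KMT2A entry lay between 32.0 and 99.7 CPM in shMLL1, against 464 to 494 CPM in shControl. It was also below every shControl library in shUTX (291 to 339 CPM), though that difference did not pass the test. The KDM6A entry reached 0.186 CPM at most in shUTX, against 0.681 to 0.873 CPM in shControl, and the NFE2L2 entry was at 0 in shNRF2, against 0.141 to 2.33 CPM in shControl. The NFE2L2 entry was also low in shMLL1 (0.141 to 0.463 CPM) and shUTX (0.172 to 0.613 CPM), so it does not set shNRF2 apart. None of 14 keratinocyte, 6 fibroblast, 4 melanocyte and 4 immune marker genes lies in a stretch, so the cell type was not checked by name.

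Names near TERT could be set beside what the genes are known for. SLC6A18 and SLC6A19, amino acid transporters of gut and kidney, and SLC6A3, the dopamine transporter of neurons, had at most 2 counts in any library. They are the nearest coding genes on either side, at 6958, 28030 and 47691 bases from the pair. SLC12A7, a potassium-chloride cotransporter, and LPCAT1, a lysophospholipid acyltransferase, averaged 180 and 736 CPM.

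TERT was detected in every library, at a low level. It held between 62 counts (CeO2-exposed shControl, exact Poisson 95% interval 47.5 to 79.5) and 125 counts (H2O2-exposed shUTX, 104 to 149). These intervals cover counting error only. Over the 12 libraries TERT ran from 9.02 to 21.5 CPM, with a median of 15.9 CPM. CLPTM1L had 2665 to 5094 counts, or 465 to 756 CPM, with a median of 638 CPM. Per kilobase of annotated exon, so that the genes can be compared, TERT was at 1.96 to 4.68 CPM per kb and CLPTM1L at 70.9 to 115 CPM per kb. CLPTM1L was 17.0 to 48.5 times higher than TERT on that scale, with a median of 27.0 times. In bulk RNA, fewer cells with a transcript and less transcript per cell cannot be told apart.

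**Figure D1:**
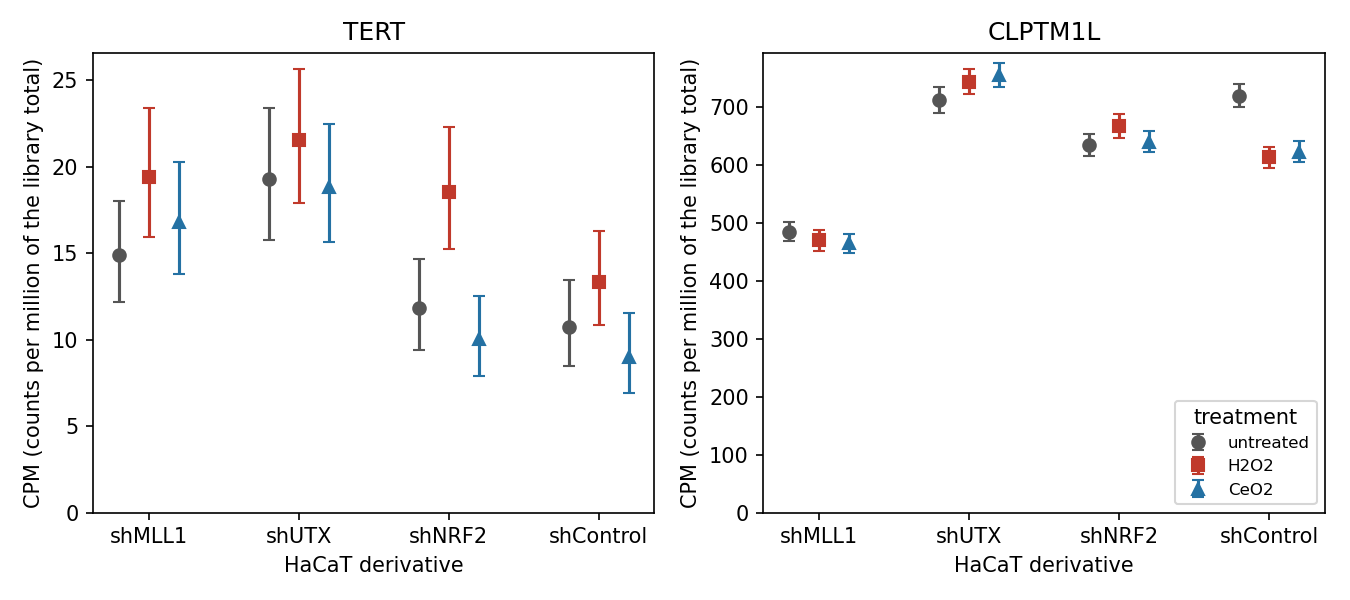
Level of TERT (left) and CLPTM1L (right) in each of the 12 libraries, in CPM from 0, by HaCaT derivative and treatment (symbol), with exact Poisson 95% intervals (counting error only). TERT in shUTX (18.9 to 21.5 CPM) and shMLL1 (14.9 to 19.4 CPM) lies above shControl (9.02 to 13.3 CPM), and CLPTM1L in shMLL1 (465 to 485 CPM) lies below all other libraries.

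TERT was higher in the shUTX and shMLL1 derivatives than in shControl, by 1.85-fold and 1.52-fold. In shUTX it stood at 19.3, 21.5 and 18.9 CPM without exposure, with H2O2 and with CeO2, against 10.7, 13.3 and 9.02 CPM in shControl. Every shUTX library was above every shControl library, as for 1651 of the 10800 entries tested. The log2 change was 0.89 ± 0.17 (SE, edgeR adjusted p = 0.00125), in a comparison where 12.6% of entries were called higher. The call and its direction held in each of 21 alternative settings, leaving out any 1 library included.

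In shMLL1, TERT stood at 14.9, 19.4 and 16.8 CPM without exposure, with H2O2 and with CeO2. The lowest of them was above the highest shControl library, as for 12.9% of entries. The log2 change over shControl was 0.60 ± 0.17 (edgeR adjusted p = 0.0289), and 5.38% of entries were called higher in this comparison. The call was lost when the H2O2 or the CeO2 library of shControl, or any library of shMLL1, was left out (adjusted p 0.0680 to 0.175), and with DESeq2 (adjusted p = 0.0559). The change stayed positive in the 21 settings, and leaving out libraries it ran from 0.49 to 0.68 on the log2 scale.

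In shNRF2, TERT stood at 11.8, 18.5 and 10.0 CPM without exposure, with H2O2 and with CeO2. The H2O2 library was above all 3 shControl libraries and the other two lay within their range. The log2 change over shControl was 0.22 ± 0.17 (edgeR adjusted p = 0.504), in a comparison with 5.33% of entries called in either direction. Without the H2O2 library of shNRF2 the change was 0.032, and leaving out each library in turn it ran from 0.032 to 0.34.

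By mean level over the treatments the derivatives ordered as shUTX (19.9 CPM), shMLL1 (17.0 CPM), shNRF2 (13.5 CPM) and shControl (11.04 CPM), and libraries of neighbours in this order overlapped in each case. TERT in shUTX against shMLL1 differed by 0.29 ± 0.16 on the log2 scale (edgeR adjusted p = 0.259), and shNRF2 against shMLL1 by -0.38 ± 0.17 (adjusted p = 0.168), neither past the threshold of 0.05. In these comparisons 18.0% and 11.3% of entries were called in either direction. TERT was lower in shNRF2 than in shUTX, by 1.59-fold (log2 -0.67 ± 0.16, adjusted p = 0.00870). In that comparison 10.7% of entries were called lower, and 17.2% had, like TERT, every shNRF2 library below every shUTX library. Without the CeO2 library of shUTX or of shNRF2 the adjusted p was 0.0573 and 0.0659.

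CLPTM1L was lower in shMLL1 than in each of the other derivatives, the opposite direction to TERT in the comparison with shControl. It stood at 485, 470 and 465 CPM without exposure, with H2O2 and with CeO2 in shMLL1, against 720, 614 and 624 CPM in shControl. The groups did not overlap, as for 11.2% of entries in this direction. The fall was 1.41-fold (log2 -0.50 ± 0.09, edgeR adjusted p = 0.00255), with 6.84% of entries called lower, and it held in each of 21 alternative settings.

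In shUTX, CLPTM1L stood at 713, 745 and 756 CPM without exposure, with H2O2 and with CeO2. In CPM the untreated libraries of shUTX and shControl lay close together, and both exposed shUTX libraries were above all shControl libraries. After TMM scaling the untreated shControl library (789 CPM) was above every shUTX library (738 to 778 CPM). The log2 change over shControl was 0.20 ± 0.09 and did not pass (adjusted p = 0.123). Without the untreated shControl library it was 0.32 (adjusted p = 0.00119).

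In shNRF2, CLPTM1L stood at 635, 667 and 641 CPM, inside the shControl range, with a log2 change of -0.05 ± 0.09 (edgeR adjusted p = 0.793). Between knockdowns it was 1.62-fold higher in shUTX than in shMLL1 (log2 0.70 ± 0.09, edgeR adjusted p = 0.000109), where 8.50% of entries were called higher. It was 1.36-fold higher in shNRF2 than in shMLL1 (log2 0.44 ± 0.09, adjusted p = 0.00629), where 6.67% were. The libraries did not overlap in either comparison, as for 14.9% and 17.6% of entries in the same direction. In shNRF2 against shUTX the libraries did not overlap either, as for 17.2% of entries in that direction, and the log2 change was -0.26 ± 0.09 (adjusted p = 0.0581). It passed in 5 of 21 alternative settings, among them the fit to the 6 libraries compared (adjusted p = 1.24e-05).

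**Figure D2:**
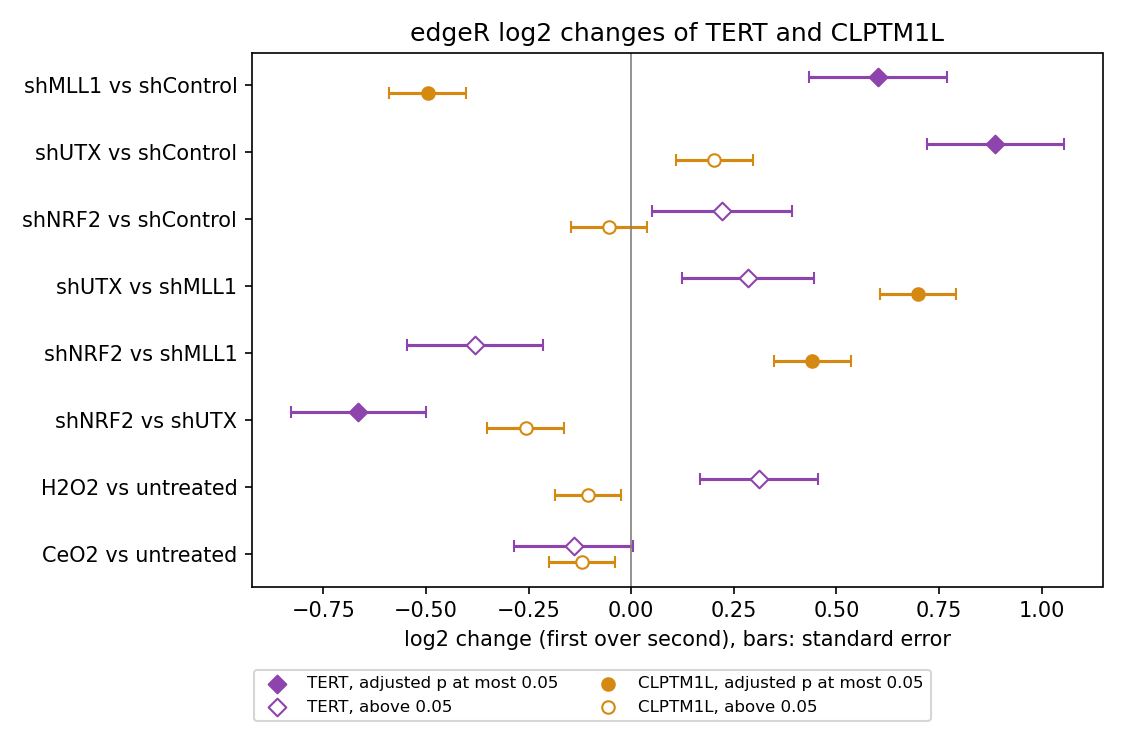
edgeR log2 changes of TERT (diamonds) and CLPTM1L (circles) for 6 pairs of derivatives and for each agent, first group over second, with standard errors. Filled symbols have an adjusted p of at most 0.05, and in shMLL1 against shControl TERT (0.60) and CLPTM1L (-0.50) are filled on opposite sides of 0.

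Set against CLPTM1L in the same library, which removes the library size, TERT was highest in shMLL1. CLPTM1L was itself lower in shMLL1 (log2 -0.50 against shControl), which raises the ratio there. By mean CPM, TERT was highest in shUTX (19.9 CPM, against 17.0 CPM in shMLL1). There were 30.7, 41.3 and 36.1 TERT counts per 1000 CLPTM1L counts in the untreated, H2O2 and CeO2 libraries of shMLL1. The values were 27.1, 28.9 and 24.9 in shUTX, 18.6, 27.8 and 15.7 in shNRF2, and 14.9, 21.8 and 14.5 in shControl. The shMLL1 libraries lay above all others, the shUTX libraries lay above those of shControl, and the shNRF2 libraries overlapped both. No test was run on the ratio.

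The genes around the pair were then set beside it. Of the 20 other coding genes that reach within 1 Mb, 15 passed the filter on low counts. In shMLL1 against shControl, 11 of the 15 fell, none rose, and the other 4 had log2 changes of -0.67 to -0.19. The median log2 change of the 15 was -0.58, against 0.01 over all entries tested, of which 6.84% were called lower. Of the 6 coding genes nearest to the pair 4 were empty or nearly so, NKD2 (an inhibitor of Wnt signalling) and the 3 transporters named above, and SLC12A7 and LPCAT1 both fell.

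SLC12A7 held 99.3 to 128 CPM in shMLL1 and 150 to 184 CPM in shControl (log2 -0.60). LPCAT1 held 572 to 607 CPM in shMLL1 and 734 to 756 CPM in shControl (log2 -0.37). The bromodomain gene BRD9 held 85.3 to 102 CPM in shMLL1 and 136 to 162 CPM in shControl (log2 -0.71). These ranges do not overlap, as for 11.2% of all entries tested in this direction. The changes of all 3 genes have the sign of CLPTM1L and not of TERT.

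TRIP13, an ATPase of the mitotic checkpoint, had a log2 change of -0.51, and SDHA, a subunit of respiratory complex II, one of -0.70. IRX4, a homeobox factor, had the lowest at -0.93. PDCD6, EXOC3, CEP72, TPPP and NDUFS6 complete the 11, with log2 changes of -0.85 to -0.49. BRD9 overlaps TRIP13 and ZDHHC11, PDCD6 overlaps AHRR, EXOC3 overlaps SLC9A3, and CEP72 overlaps TPPP, and since the labels do not say whether counting used strand the source of shared reads is uncertain. Leaving out 1 library at a time gave 9 to 11 lower neighbours and none higher.

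In shUTX against shControl, 5 of the 15 neighbours rose and 2 fell. SLC12A7 rose by 0.65, SLC9A3, a sodium-proton exchanger, by 0.70, TPPP by 0.63, BRD9 by 0.40 and LPCAT1 by 0.27 on the log2 scale, while ZDHHC11, a palmitoyltransferase gene with a close copy in ZDHHC11B, fell by 1.00 and IRX4 by 0.81. The median was 0.21, against 5.47e-05 over all entries, of which 12.6% were called higher and 13.7% lower. In shNRF2 against shControl edgeR called none of the 15 (median -0.06), against 5.33% of all entries, so the count is near the background. Leaving out libraries gave 3 to 6 higher and 2 to 3 lower in shUTX, and 0 to 1 lower in shNRF2. The count of 3 came without the H2O2 library of shUTX, and the 1 lower gene in shNRF2 without the untreated library of shControl. Without scaling by TMM, 6 rose and 3 fell in shUTX.

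**Figure D3:**
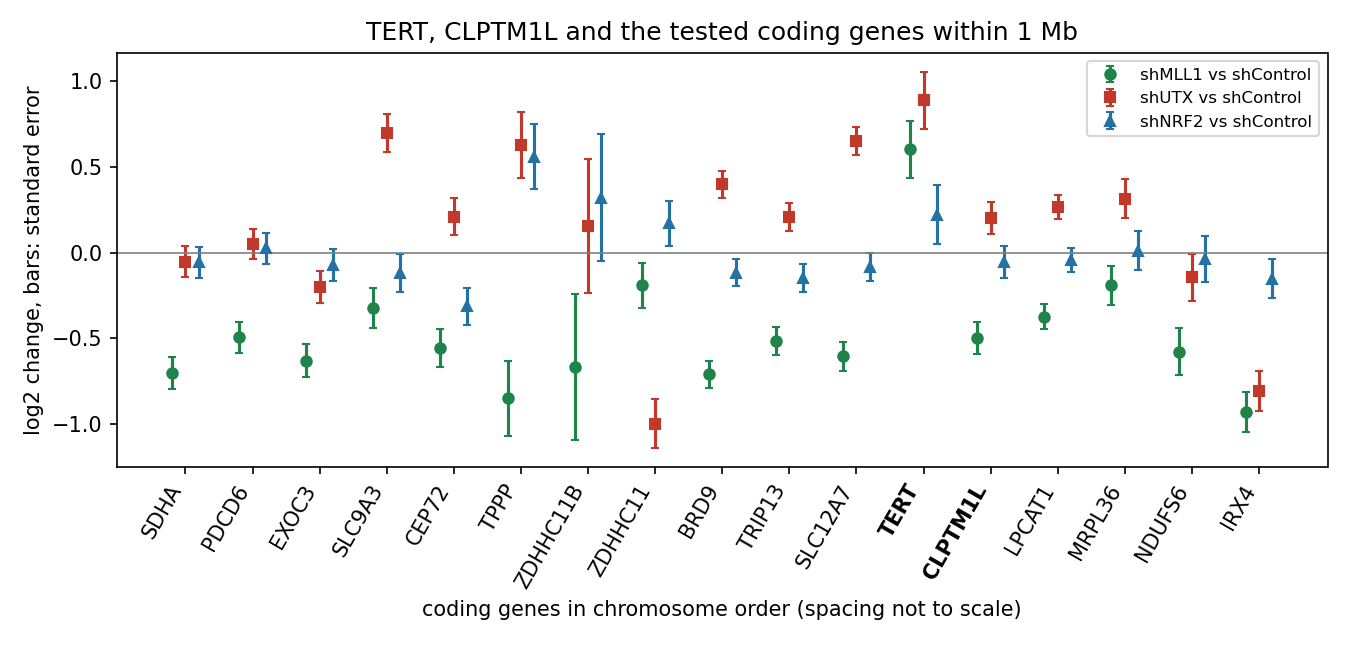
edgeR log2 changes against shControl, with standard errors, for TERT, CLPTM1L (bold) and the 15 tested coding genes within 1 Mb, in chromosome order with equal spacing. In shMLL1 (circles) TERT, at 0.60, is the single gene above 0, and the others lie between -0.93 and -0.19.

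The comparison was then widened to the whole stretch of chromosome 5. Of 95 tested coding genes in the stretch, 61 were lower and 8 higher in shMLL1 than in shControl, a median log2 change of -0.46. In the stretches on other chromosomes, 20 of 225 coding genes were lower and 19 higher (median -0.002). TERT had the third highest change of the 95 and CLPTM1L ranked 54. The other 7 higher genes lie 39.2 Mb or more from TERT, towards the centromere. They include PTGER4 (a prostaglandin receptor, log2 1.78), CCDC152 (1.75), PRKAA1 (a catalytic subunit of AMP-activated kinase, 0.45) and MRPS30 (0.35). Of the 73 tested genes nearer than that, CLPTM1L included, 59 fell. That none of them rose is fixed by how the distance was set, at the nearest of these 7 higher genes. This distance and the 4 genes named were chosen after the values were seen.

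Coding genes of the stretch made up 2.09% to 2.17% of all counts in shMLL1 libraries, against 2.68% to 2.88% in shControl libraries. The share was 2.90% to 2.96% in shUTX and 2.80% to 2.87% in shNRF2. In shMLL1 against shControl the fall did not cover the whole stretch. From 40 to 50 Mb from TERT, 2 of 16 genes were lower and 2 higher (median log2 0.07). Within 10 Mb of TERT, and leaving TERT out, 26 of 32 were lower and 0 higher (median -0.53). The part that the shift in the stretch plays in the change of CLPTM1L was not tested. Leaving out 1 library at a time gave 47 to 64 lower and 3 to 8 higher genes of the 95 in shMLL1. Without 1 of 5 libraries, the H2O2 or CeO2 library of shControl or any library of shMLL1, the higher genes numbered 3 to 5, and TERT was not among them.

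**Figure D4:**
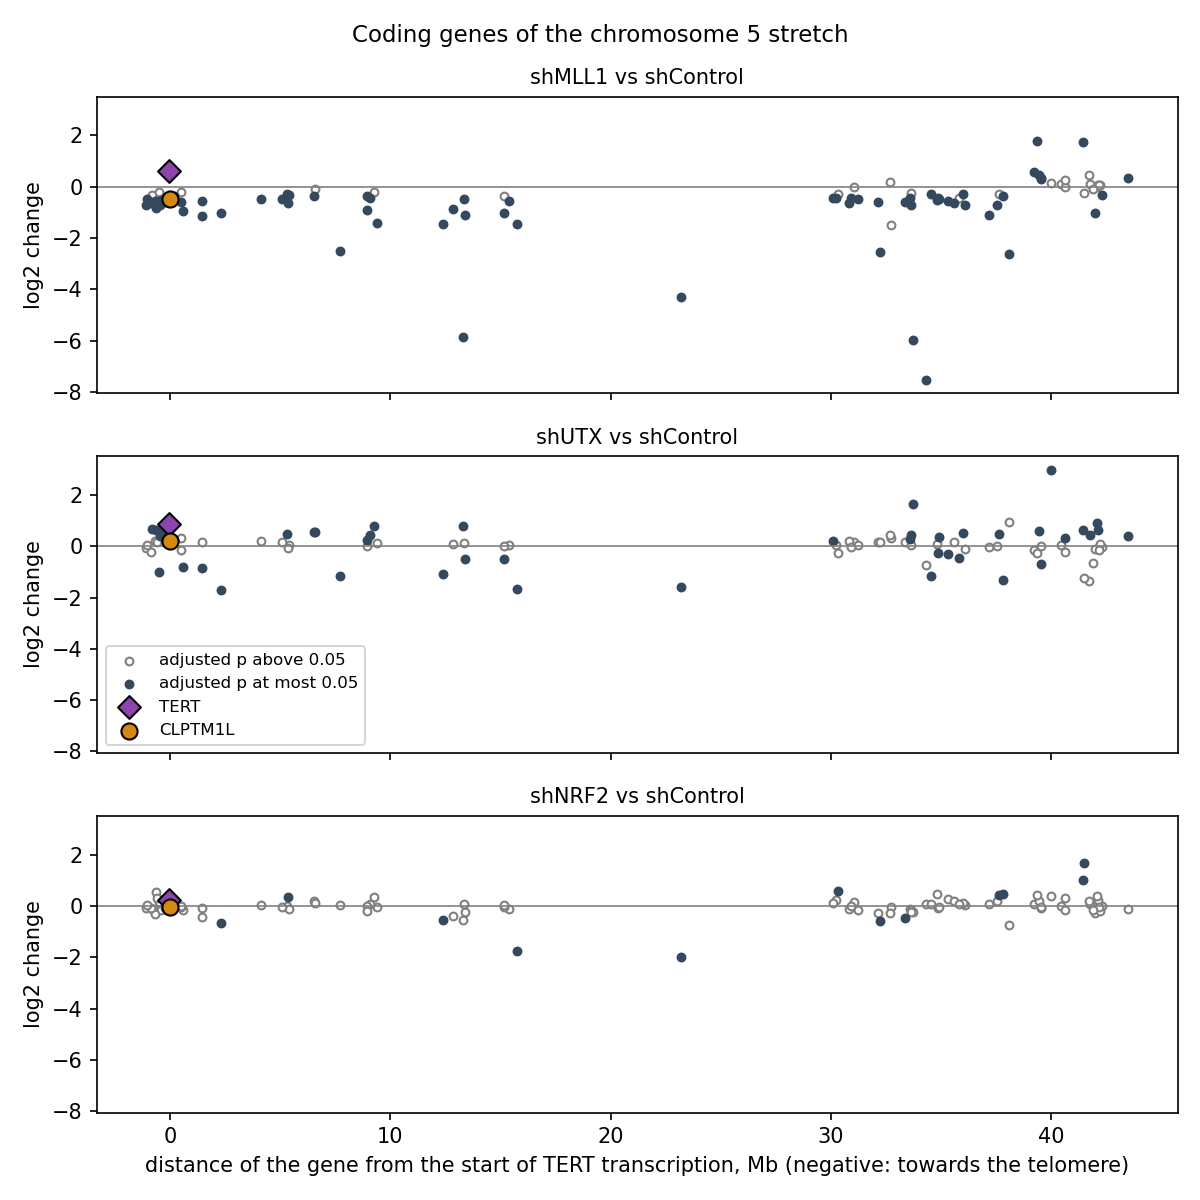
edgeR log2 change against shControl of the 95 tested coding genes of the chromosome 5 stretch, by distance from the start of TERT transcription in Mb, for shMLL1, shUTX and shNRF2 (top to bottom). In the top panel TERT (diamond) stands at 0.60 among genes with a median of -0.56 over the 39.2 Mb next to it, and CLPTM1L (circle) lies with them. That distance ends at the nearest other gene called higher, so no gene called higher enters the median.

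Across the 12 libraries the levels of TERT and CLPTM1L did not run together, with a Pearson r of -0.02 and a Spearman rho of 0.19 on log2(CPM + 1). The likeness below is over the same 12 libraries of 4 derivatives and is a description. Among 346 entries of the stretches and the mitochondrial genome with a mean of at least 5 CPM, those most like TERT included the non-coding entry ENSG00000260912 (r = 0.85), which is annotated as overlapping another gene, MRPS30 of the mitochondrial ribosome (0.84), NOL6, a nucleolar protein (0.82), and MTAP, an enzyme of methionine salvage (0.80). Of these 4, 3 lie on chromosome 9, and MRPS30 lies at the far end of the chromosome 5 stretch. NOL6 held 578 to 647 CPM in shMLL1, 661 to 672 CPM in shUTX, 463 to 511 CPM in shNRF2 and 368 to 443 CPM in shControl.

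The 5 entries most like CLPTM1L all lie on the short arm of chromosome 5. They were IRX2, a homeobox factor (r = 0.98), LPCAT1 (0.96), ATPSCKMT, a lysine methyltransferase for an ATP synthase subunit (0.95), TRIP13 (0.95) and GOLPH3, a Golgi protein (0.95). Spearman rho for these 5 ran from 0.76 (ATPSCKMT) to 0.92 (IRX2). The chromosome 5 stretch held 95 tested coding genes, against 225 in the other stretches, and its share of the 346 entries was not counted. IRX2 held 144 to 164 CPM in shMLL1, 238 to 254 CPM in shUTX, 206 to 220 CPM in shNRF2 and 199 to 255 CPM in shControl.

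Exposure to H2O2 went with a slightly higher TERT that did not pass the test. The 4 H2O2 libraries held 19.4 (shMLL1), 21.5 (shUTX), 18.5 (shNRF2) and 13.3 CPM (shControl), against 14.9, 19.3, 11.8 and 10.7 CPM in the untreated libraries of the same derivatives. TERT was above untreated in all 4 derivatives, as were 16.9% of entries, and H2O2 gave the highest TERT of the 3 treatments in all 4, as for 3.38% of entries. The log2 change was 0.31 ± 0.14 (edgeR adjusted p = 0.249). Without the H2O2 library of shNRF2 it was 0.18 (adjusted p = 0.540), and leaving out each library in turn it ran from 0.18 to 0.38. At that adjusted threshold edgeR and limma-voom called 0.0% of entries for H2O2 and DESeq2 called 124, TERT (adjusted p = 0.321) and CLPTM1L (0.469) not among them, while 19.5% had an unadjusted p under 0.05 in edgeR. Within a derivative the ratio of H2O2 to untreated was 1.57 in shNRF2 (exact conditional 95% interval 1.17 to 2.11, counting error only). It was 1.30 in shMLL1 (0.989 to 1.72), 1.115 in shUTX (0.853 to 1.46) and 1.24 in shControl (0.912 to 1.70), and these intervals include 1.

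After CeO2, TERT stood at 16.8 (shMLL1), 18.9 (shUTX), 10.0 (shNRF2) and 9.02 CPM (shControl), above untreated in shMLL1 and below it in the other 3 derivatives. The log2 change was -0.14 ± 0.15 (edgeR adjusted p = 0.631), in a comparison with 0.0185% of entries called. Within derivatives the ratios to untreated ran from 0.840 to 1.13, and each 95% interval included 1. CLPTM1L changed by -0.11 ± 0.08 with H2O2 (adjusted p = 0.492) and by -0.12 ± 0.08 with CeO2 (adjusted p = 0.438) on the log2 scale.

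Within derivatives the CLPTM1L ratios to untreated were not all on the same side of 1. In the exposed shControl libraries CLPTM1L was lower, at 0.852 times the untreated level with H2O2 (95% interval 0.819 to 0.887) and 0.866 times with CeO2 (0.832 to 0.902). Each ratio sets 1 library against 1, and the intervals cover counting error only, not the spread between libraries. In shUTX the ratios were 1.04 and 1.06, in shNRF2 1.05 and 1.01, and in shMLL1 0.970 and 0.959. After TMM scaling the shControl ratios were 0.762 and 0.758, and the CeO2 ratio of shNRF2 was 0.9998. An exploratory model had a term for exposure to either agent in each knockdown. It fits each untreated library exactly, so the exposed libraries alone give the spread, and its p-values do not cover variation between untreated libraries. The difference in response, knockdown minus shControl, was 0.46 ± 0.11 on the log2 scale for shUTX (edgeR adjusted p = 0.00917), where 6.8% of entries were called in this direction. For shNRF2 it was 0.43 ± 0.11 (adjusted p = 0.0118), where 8.02% were. For shMLL1 the term was 0.26 ± 0.11 (adjusted p = 0.250), where 0.648% were called in either direction. That share rests on 70 calls, and leaving out 1 exposed library gave between 4 (without the H2O2 library of shMLL1, among others) and 676 (without the H2O2 library of shControl). All 3 terms use the same untreated shControl library, whose TMM scaling factor of 0.914 was the lowest of the 12 (the others 0.967 to 1.05). Without scaling the terms for shUTX and shNRF2 were 0.29 (adjusted p = 0.0694) and 0.26 (adjusted p = 0.0998). For TERT the same terms were 0.33 ± 0.33 in shMLL1, 0.18 ± 0.33 in shUTX and 0.36 ± 0.35 in shNRF2, with adjusted p of 0.686, 0.785 and 0.547.

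Other parts of the telomerase system could not be read by name. Of 11 genes of the telomerase holoenzyme, TERT is the only one in a stretch, and none of 10 genes of the shelterin and CST complexes or of 20 regulators of the TERT promoter lies in one. Among all 11 holoenzyme entries 5 were tested; in shMLL1 1 was called higher (TERT) and none lower, in shUTX 1 higher (TERT) and 1 lower, and in shNRF2 none. Of the shelterin and CST entries 4 were tested, with 1 called higher in shMLL1 and 1 in shUTX. Of the promoter regulators 6 were tested, with 1 lower in shMLL1, 2 higher and 1 lower in shUTX and 1 higher in shNRF2. Over all entries 5.38% were higher and 6.84% lower in shMLL1, 12.6% higher and 13.7% lower in shUTX, and 5.33% called either way in shNRF2, and with so few entries tested the list counts are not read against these shares. With H2O2 and CeO2 edgeR called none of these entries, and apart from TERT none of them is read as the gene it is named for.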

How the data were processed

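Both tables hold the authors' deposited values, whole read counts for each Ensembl identifier. One covers H2O2 and the other CeO2; the untreated libraries stand in both, differ by 1 count in 1 cell, and were read from the H2O2 table. The genome build GRCh38 and the tools HTSeq 0.11.1, SAMtools 1.12, HISAT2 2.2.1 and Trimmomatic 0.39 are named, per the submitters' processing notes; settings, annotation and strand use were not stated. Symbols were found for 61399 identifiers and GENCODE 29 positions for 58298.

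Readable stretches were sought among 419 genes needed in any cell, picked by symbol: a hidden Markov model (chance of 30 CPM or more set to 0.95 within, 0.25 elsewhere, switching 0.02), then at least 3 such genes, each at 30 CPM or more, median 150 CPM or more. These limits were set after seeing the data.

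The 10800 entries reaching 1 CPM in 3 libraries were scaled by TMM and tested in edgeR 4.0.16 by quasi-likelihood, two-sided, with Benjamini-Hochberg adjustment over all of them and a threshold of 0.05. The additive model of derivative and treatment had 6 residual degrees of freedom, the exploratory one 3. Standard errors follow from the F statistic. Alternatives were RLE, upper-quartile or no scaling, other filters, DESeq2 1.42.0, limma-voom (limma 3.58.1), the compared libraries alone, the other table's untreated counts, and each library left out. The other table's untreated counts differ by 1 count and gave the same values for both genes, so that setting adds no support. The code was tested on simulated counts.

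Named genes are the pair, coding genes reaching within 1 Mb of it, and for each member the 5 entries of highest Pearson r on log2(CPM + 1), of which 1 is not reported here. Members, lists and tests were chosen with earlier results of these data known.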

Additional observations from a re-analysis of the deposited data

Results flagged for a closer look

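These 2 results on CLPTM1L were picked out because its response to exposure differed between derivatives in the exploratory model. The response to either agent in shUTX minus that in shControl was 0.46 on the log2 scale (edgeR adjusted p = 0.00917), and in CPM both exposed libraries were above untreated in shUTX and both below untreated in shControl. For shNRF2 the difference was 0.43 (adjusted p = 0.0118), with both exposed libraries above untreated in CPM, although the CeO2 library was at 0.9998 times untreated after TMM scaling. Each untreated arm is 1 library, which the model fits exactly. The p-values therefore do not cover the spread between untreated libraries, and whether the responses differ beyond that spread was not tested.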

How the results depend on the processing

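Over 22 tested results on TERT and CLPTM1L, 414 of 432 values under alternative settings kept the direction and the side of the threshold, and 15 results did so under every setting run. Most of the 22 were not called in the main fit, and staying uncalled counts as kept. For TERT, the calls in shMLL1 against shControl and in shNRF2 against shUTX were lost in some setting. So were the calls for the changed response of CLPTM1L in shUTX and in shNRF2. The log2 change of TERT in shMLL1 against shControl lost its call with DESeq2 (0.60, adjusted p = 0.0559), and it ran from 0.49 to 0.68 when leaving out 1 library at a time. CLPTM1L in shNRF2 against shUTX passed with no filter beyond a count above 0 (-0.24, adjusted p = 0.0457) and in the fit to the 6 libraries compared (-0.25, adjusted p = 1.24e-05), and also without the untreated (adjusted p = 0.00189) or CeO2 library of shControl (0.0415) or the untreated library of shUTX (0.0378). Without scaling, the changed response of CLPTM1L was 0.29 in shUTX and 0.26 in shNRF2 and neither passed. Leaving out 1 library at a time, log2 changes ran from 0.13 to 0.32 for CLPTM1L in shUTX and from -0.12 to 0.063 in shNRF2, both against shControl. In shNRF2 against shUTX they ran from -0.85 to -0.55 for TERT and from -0.34 to -0.19 for CLPTM1L. CLPTM1L in shNRF2 against shControl turned positive without the untreated shControl (0.0634) or untreated shNRF2 library (0.0112), and it was not called in either case. Counts of neighbours were repeated with other scalings and with libraries left out, which was chosen after seeing the data. Over all entries, calls for H2O2 numbered 0 with edgeR, 124 with DESeq2, 651 with no filter and 3 in the libraries compared, and for CeO2 2, 44, 543 and 0. Calls for shUTX against shControl numbered 2842, and 1427 in the libraries compared; for shNRF2 against shControl 576, 907 with no filter and 154 in the libraries compared; for shNRF2 against shUTX 2529 and 4351 in those compared. Leaving out 1 library moved the calls for shMLL1 against shControl (1320) to between 667 and 1941, and for shNRF2 against shControl to between 257 and 830. For the changed response DESeq2 called 658 against 1554 in shUTX and 673 against 1794 in shNRF2. The changed response was refitted without each exposed library in turn and not without untreated ones. The cause of these shifts was not tested. No paired analysis was possible because the labels give no replicate numbers to pair by; the additive model already matches libraries by treatment or by derivative. TERT rests on 62 to 125 counts per library, which limits the precision of its ratios.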
